A study of Mus musculus with 1504 samples.

Results

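The 10 genes described here are transcription factors of mesenchymal cells: Prrx1, Meox1, Meox2, Foxf2, Osr1, Nr2f1, Gata6, Ebf2, Lef1 and Mef2c. They were chosen by name, with earlier results of these data known, as 10 of the 21947 genes in a table of read counts. All 10 were measured. The table holds 1504 single cells sorted by fluorescence from lungs of adult C57BL/6 mice and sequenced with SMART-seq2, which reads whole polyadenylated transcripts. The labels give 361 cells of mice with Pdgfrb-eGFP and NG2-dsRed, 374 cells of Pdgfrb-eGFP mice and 769 cells of Cldn5-eGFP mice. Both eGFP reporters are driven from bacterial artificial chromosomes, and NG2 is the product of Cspg4. A Pdgfrb reporter marks pericytes, smooth muscle and fibroblasts alike, and a Cldn5 reporter marks endothelium. Mice were 12 to 15 weeks old by the sample labels, while the design text has 10 to 19 weeks. No treatment or mutation other than the reporters was named.

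Mesenchymal cells of the lung vessel wall include pericytes, which lie on capillaries, smooth muscle cells, which ring arteries, veins and airways, and fibroblasts, which lie in the adventitia and the alveolar walls. Transcription factors bind DNA and set which genes a cell type transcribes, and related types often use different members of 1 factor family. Of the 10 genes, Prrx1, Meox1 and Meox2 encode homeodomain proteins known from limb and somite development. Foxf2 encodes a forkhead protein needed by brain pericytes in mice, Nr2f1 an orphan nuclear receptor, and Lef1 a factor that carries WNT signals with beta-catenin. Osr1 encodes a zinc finger protein of embryonic connective tissue, Gata6 a zinc finger protein known in vascular smooth muscle, Ebf2 a factor of mesenchymal and fat precursors, and Mef2c a MADS-box factor of muscle, heart and endothelium.

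In the GRCm38 annotation Foxf2 lies on chromosome 13 from 31625816 to 31631403, Nr2f1 on the same chromosome from 78188973 to 78199757 and Mef2c from 83504034 to 83667080. Lef1 lies on chromosome 3 from 131110471 to 131224356, Prrx1 on chromosome 1 from 163245119 to 163313710 and Meox1 on chromosome 11 from 101877510 to 101894374. Osr1 and Meox2 both lie on chromosome 12, from 9570116 to 9581500 and from 37108540 to 37179534. Ebf2 lies on chromosome 14 from 67233292 to 67430918. All read counts are per gene, and no exon, intron or UTR was counted apart.

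Windows of RefSeq's promoter table were used for 6 of the 10 genes. The 250 bases before the start are shown for Foxf2 and Lef1, which were high in pericyte-like cells, and for Meox2, high in fibroblast-like cells. Capitals mark matches to GGGCGG, the core of the GC box, and to TATAAA, the TATA box, on either strand. All 3 windows are on the plus strand of GRCm38.p6, written 5′ to 3′, at chr13:31625566-31625815 for Foxf2, chr3:131110047-131110296 for the first of 4 Lef1 windows and chr12:37108290-37108539 for Meox2.
Foxf2: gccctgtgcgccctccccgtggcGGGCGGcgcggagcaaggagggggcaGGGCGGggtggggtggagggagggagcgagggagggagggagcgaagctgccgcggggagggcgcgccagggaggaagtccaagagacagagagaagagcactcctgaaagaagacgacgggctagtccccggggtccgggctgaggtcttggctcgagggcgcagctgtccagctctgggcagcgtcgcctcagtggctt
Lef1: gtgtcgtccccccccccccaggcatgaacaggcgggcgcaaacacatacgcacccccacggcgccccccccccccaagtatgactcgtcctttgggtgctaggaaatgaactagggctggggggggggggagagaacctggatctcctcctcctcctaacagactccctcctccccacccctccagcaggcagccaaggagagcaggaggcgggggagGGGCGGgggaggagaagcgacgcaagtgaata
Meox2: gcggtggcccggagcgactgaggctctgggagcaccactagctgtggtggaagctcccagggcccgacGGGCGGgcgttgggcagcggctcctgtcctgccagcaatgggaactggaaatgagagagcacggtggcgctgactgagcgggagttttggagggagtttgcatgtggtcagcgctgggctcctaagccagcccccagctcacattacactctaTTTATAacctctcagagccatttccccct

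The Foxf2 window was 71.6% G or C with 21 CpG pairs, the Lef1 window 66.4% with 11 and the Meox2 window 62% with 12, where the median over 32536 promoter windows was 52.4% and 6. Foxf2 had GGGCGG at positions -227 and -201, Lef1 at -32 and Meox2 at -182, counted back from the start. Over all windows 33.0% held GGGCGG on either strand. Meox2 had TTTATA, the reverse complement of TATAAA, at -29, and 12.3% of all windows held that motif on either strand. Matches do not overlap each other. The homeodomain core TAATTA, the forkhead core GTAAACA, the LEF/TCF core CTTTGAA, the nuclear receptor motif AGGTCA, the GATA motif AGATAA and CCAAT were searched in the same way and had no match in these 3 windows, which says only that those letters are not there. Their shares over all windows were 4.84%, 3.17%, 4.47%, 14.0%, 9.97% and 33.8%, in that order.

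Cells lay in 6 column sets of the table. Mural1 held 128 cells, Mural2 233 and Mural3 374, and EC1, EC2 and EC3 held 243, 275 and 251. Column names give no reporter for the Mural sets, so these are used under their own names, and EC1 to EC3 are the Cldn5-eGFP cells. Reads per cell ran from 100229 to 609242. No animal, plate or date was labelled, so each population is 1 sample. No difference here has a replicate check and no p-value was computed. Intervals are exact 95% intervals for counting error only, computed as if reads or cells were independent. SMART-seq2 reads are not independent molecules, so the intervals of levels and folds are too narrow even for that. A level is given in CPM, the usual scaling of counts to depth, from a gene's summed reads and all reads of that class. Share means the percentage of cells with a read after each cell was thinned to 50000 reads, which takes depth out of the comparison.

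Cells were grouped by clustering that left out all 138 measured genes of the lists used here, the 10 factors included, and clusters were named from marker genes. There were 70 pericyte-like cells, 69 smooth muscle-like, 363 fibroblast-like, 45 chondrocyte- or perichondrial-like, 74 aerocyte-like, 22 lymphatic-like and 660 general capillary-like cells. Aerocytes are the capillary endothelial cells specialised for gas exchange. The 11 pericyte markers summed to 15710 CPM in pericyte-like cells, 2413 in smooth muscle-like, 202 in fibroblast-like and 112 in general capillary-like cells. Pericyte-like cells came from Mural1 (27 cells) and Mural2 (43 cells), and 289 of the 363 fibroblast-like cells came from Mural3. A cluster of 169 cells with many epithelial and leukocyte reads and a cluster of 32 cells stayed unnamed and enter no class. All 11 epithelial markers had reads in both mural classes. Their sum was 77.4 CPM in Mural1 and 2227 in Mural2 for pericyte-like cells, and 91.7 in Mural1 and 4927 in Mural2 for smooth muscle-like cells. Their part in the levels below was not tested, so values are given for both column sets. By markers of 2 lineages at once, 9 of the smooth muscle-like cells and 2 of the pericyte-like cells were doublet-like, and no call named below was lost without them.

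**Figure D1:**
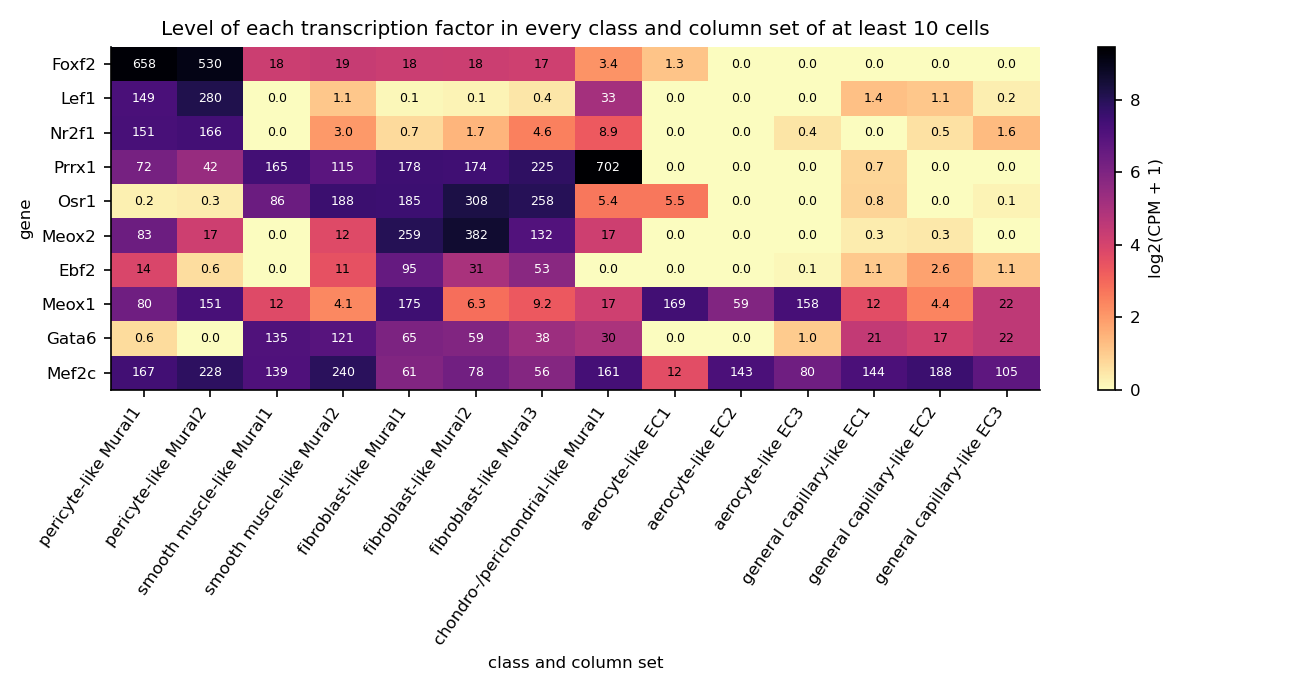
Level of the 10 transcription factors (rows) in each class within each column set of at least 10 cells (columns), coloured by log2(CPM + 1) and labelled with CPM. Foxf2, Lef1 and Nr2f1 are dark in the pericyte-like columns, Prrx1 and Osr1 in the smooth muscle- and fibroblast-like ones and Meox2 in the fibroblast-like ones, while Mef2c is spread over most columns.

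Foxf2, Lef1 and Nr2f1 were high in pericyte-like cells and lower in each of the other 6 named classes. Foxf2 stood at 658 CPM in Mural1 and 530 CPM in Mural2 pericyte-like cells. It stood at 17.5 and 19.0 CPM in smooth muscle-like cells of Mural1 and Mural2, and at 18.2, 17.8 and 16.9 CPM in fibroblast-like cells of Mural1, Mural2 and Mural3. The lowest pericyte-like value thus lay far above the highest value of the other 2 mesenchymal classes. After thinning, 72.9% of pericyte-like cells (60.9 to 82.8) held a Foxf2 read, against 10.1% of smooth muscle-like cells (4.18 to 19.8) and 11.6% of fibroblast-like cells (8.47 to 15.3). The pooled fold of pericyte- over fibroblast-like cells was 34.1 (32.5 to 35.8). In 660 general capillary-like cells only 2 Foxf2 reads were counted.

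Lef1 stood at 149 CPM in Mural1 and 280 CPM in Mural2 pericyte-like cells. Smooth muscle-like cells held 0 reads in Mural1 and 16 in Mural2. Fibroblast-like cells held 1 read in Mural1, 2 in Mural2 and 40 in Mural3, or at most 0.376 CPM. The share was 74.3% in pericyte-like cells, 4.35% in smooth muscle-like cells and 0.826% in fibroblast-like cells, and the fold of pericyte- over fibroblast-like cells was 694 (514 to 961). Outside pericyte-like cells Lef1 was highest in chondrocyte- or perichondrial-like cells, at 33.9 CPM and in 31.1% of cells. These cells carry Chad and Col2a1 among their leading genes and came mostly from Mural1.

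Nr2f1 stood at 151 CPM in Mural1 and 166 CPM in Mural2 pericyte-like cells, against 0.661, 1.75 and 4.61 CPM in fibroblast-like cells of Mural1, Mural2 and Mural3. Its share was 57.1% (44.7 to 68.9) in pericyte-like and 4.96% (2.96 to 7.72) in fibroblast-like cells, with a fold of 40.4 (36.7 to 44.6). An antisense transcript, A830082K12Rik, shares 123 exon bases with Nr2f1 and was listed at 25.2 CPM in pericyte-like and 4.96 CPM in fibroblast-like cells. Whether counting used strand is not given in the sources used here, so reads from the shared bases cannot be told apart. Lef1 shares 1208 exon bases, Ebf2 424 and Foxf2 98 with antisense or microRNA genes not counted separately.

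The 3 genes were often found in the same cell. Of 70 pericyte-like cells, 23 (32.9%) held reads of all 3 after thinning, 32 held reads of exactly 2, 10 of 1 and 5 of none. Of 69 smooth muscle-like cells, 12 held reads of 1 of them and none held more. Of 363 fibroblast-like cells, 57 held 1, 3 held 2 and none held 3. The trio was chosen after the levels had been seen, so these shares describe the same contrast from cell to cell and add no independent evidence.

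**Figure D2:**
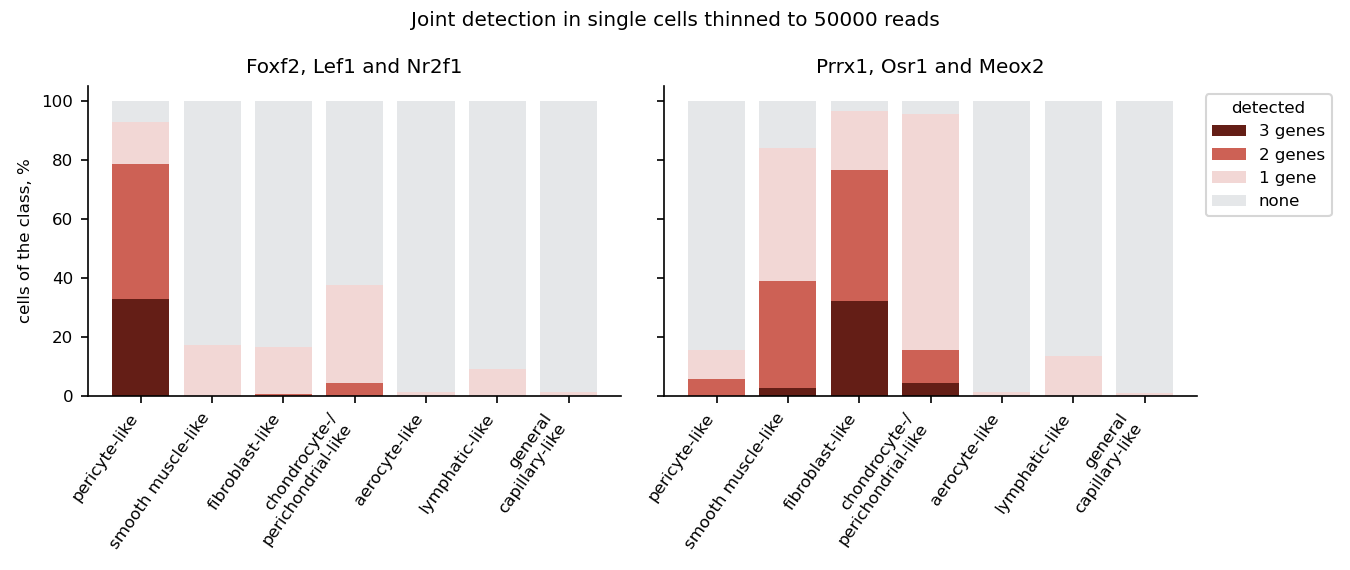
Share of the cells of each class in which 3, 2, 1 or none of a trio of genes had a read after thinning to 50000 reads, for Foxf2, Lef1 and Nr2f1 (left) and for Prrx1, Osr1 and Meox2 (right). At least 1 gene of the first trio was found in 92.9% of pericyte-like cells, and at least 1 of the second in 96.7% of fibroblast-like cells.

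Prrx1 and Osr1 were higher in smooth muscle- and fibroblast-like cells than in pericyte-like cells. In pericyte-like cells 3 Osr1 reads were counted in all, 1 in Mural1 and 2 in Mural2. Osr1 stood at 86.2 and 188 CPM in smooth muscle-like cells of Mural1 and Mural2 and at 185, 308 and 258 CPM in fibroblast-like cells of Mural1, Mural2 and Mural3. The ranges of the last 2 classes overlapped, if only just. The Osr1 level was 1030-fold lower (352 to 4995) in pericyte- than in fibroblast-like cells, and 655-fold lower (224 to 3179) than in smooth muscle-like cells. Among endothelial classes Osr1 reached 32.3 CPM in lymphatic-like cells, with 68.8% of those reads in 1 cell.

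Prrx1 stood at 71.6 CPM in Mural1 and 41.9 CPM in Mural2 pericyte-like cells, but 1 cell gave 41.6% of these reads and the share was 14.3%. It stood at 165 and 115 CPM in smooth muscle-like cells of Mural1 and Mural2 and at 178, 174 and 225 CPM in fibroblast-like cells of Mural1, Mural2 and Mural3. The ranges of the 3 classes did not overlap, in rising order from pericyte- to fibroblast-like. The level was 3.98-fold lower in pericyte- than in fibroblast-like cells, just under the threshold of 4 used below. Among the 7 named classes the highest Prrx1 level was in chondrocyte- or perichondrial-like cells, at 661 CPM (648 to 675) and in 93.3% of cells. Aerocyte- and lymphatic-like cells had no Prrx1 read, and 3 reads, taken as the limit a count of 0 allows, would be 0.127 and 0.513 CPM.

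Meox2 was high in fibroblast-like cells of every Mural set and lower in both other mesenchymal classes. Pericyte-like cells had 83.4 CPM in Mural1 and 17.5 CPM in Mural2, in 5.71% of cells, and 1 cell gave 47.7% of the reads. Smooth muscle-like cells had no read in Mural1 and 12.4 CPM in Mural2. Fibroblast-like cells had 259, 382 and 132 CPM in Mural1, Mural2 and Mural3. The pooled Meox2 level was 18.9-fold lower (16.3 to 22.1) in smooth muscle- than in fibroblast-like cells. Within fibroblast-like cells Meox2 was 2.46-fold higher (2.39 to 2.53) in Mural1 and Mural2 than in Mural3, with reads in 74.3% and 39.8% of cells. The sets held different clusters of that class: clusters 2, 8 and 10, described further on, gave 13, 2 and 21 of the Mural1 cells, 30, 1 and 7 of the Mural2 cells and 230, 48 and 11 of the Mural3 cells. Within cluster 2 Meox2 was at 253 CPM in Mural1, 417 CPM in Mural2 and 121 CPM in Mural3.

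Meox1, the close paralogue of Meox2, had a different distribution. It stood at 80.4 CPM in Mural1 and 151 CPM in Mural2 pericyte-like cells and at 12.4 and 4.06 CPM in smooth muscle-like cells. In fibroblast-like cells it stood at 175 CPM in Mural1, 6.34 CPM in Mural2 and 9.25 CPM in Mural3, so that Mural1 fibroblast-like cells lay above the pericyte-like range and the other 2 sets far below it. Meox1 was also the only one of the 10 genes past the size rule in aerocyte- or lymphatic-like cells over general capillary-like cells. Aerocyte-like cells had 169, 59.4 and 158 CPM in EC1, EC2 and EC3, and general capillary-like cells 11.6, 4.41 and 21.8 CPM, so the sets did not overlap. In the 22 lymphatic-like cells Meox1 reached 385 CPM (369 to 401), in 54.5% of cells.

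Gata6 was highest in smooth muscle-like cells. Pericyte-like cells held 3 Gata6 reads, all in 1 cell. Smooth muscle-like cells had 135 CPM in Mural1 and 121 CPM in Mural2. Fibroblast-like cells had 65.2, 59.4 and 38.0 CPM in Mural1, Mural2 and Mural3, all below the smooth muscle-like values. The Gata6 level was 496-fold lower (170 to 2407) in pericyte- than in smooth muscle-like cells. General capillary-like cells had 20.0 CPM in 8.33% of cells. A transcript of the other strand, 1010001N08Rik, shares 93 exon bases with Gata6 and was at 2.43 CPM in smooth muscle-like cells.

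Ebf2 was found mainly in fibroblast-like cells. Pericyte-like cells had 6.06 CPM, with 80.8% of reads in 1 cell, and smooth muscle-like cells 7.73 CPM, with 76.5% of reads in 1 cell. Fibroblast-like cells had 95.4, 30.9 and 52.6 CPM in Mural1, Mural2 and Mural3, but only 19.8% of them (15.9 to 24.3) held a read. The fibroblast-like cells with a read had a median of 177 CPM. Ebf2 was not read in chondrocyte- or perichondrial-like cells, where 3 reads would be 0.219 CPM.

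Mef2c had at least 50 CPM in each of the 7 named classes. It stood at 167 and 228 CPM in pericyte-like cells and at 139 and 240 CPM in smooth muscle-like cells of Mural1 and Mural2, and these ranges overlapped. Fibroblast-like cells were lower, at 60.5, 77.9 and 56.4 CPM in Mural1, Mural2 and Mural3. General capillary-like cells had 144, 188 and 105 CPM in EC1, EC2 and EC3. The highest class level was 398 CPM in the 22 lymphatic-like cells. By share, smooth muscle-like cells had 76.8% (65.1 to 86.1), against 38.6% of pericyte-like and 37.7% of fibroblast-like cells.

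**Figure D3:**
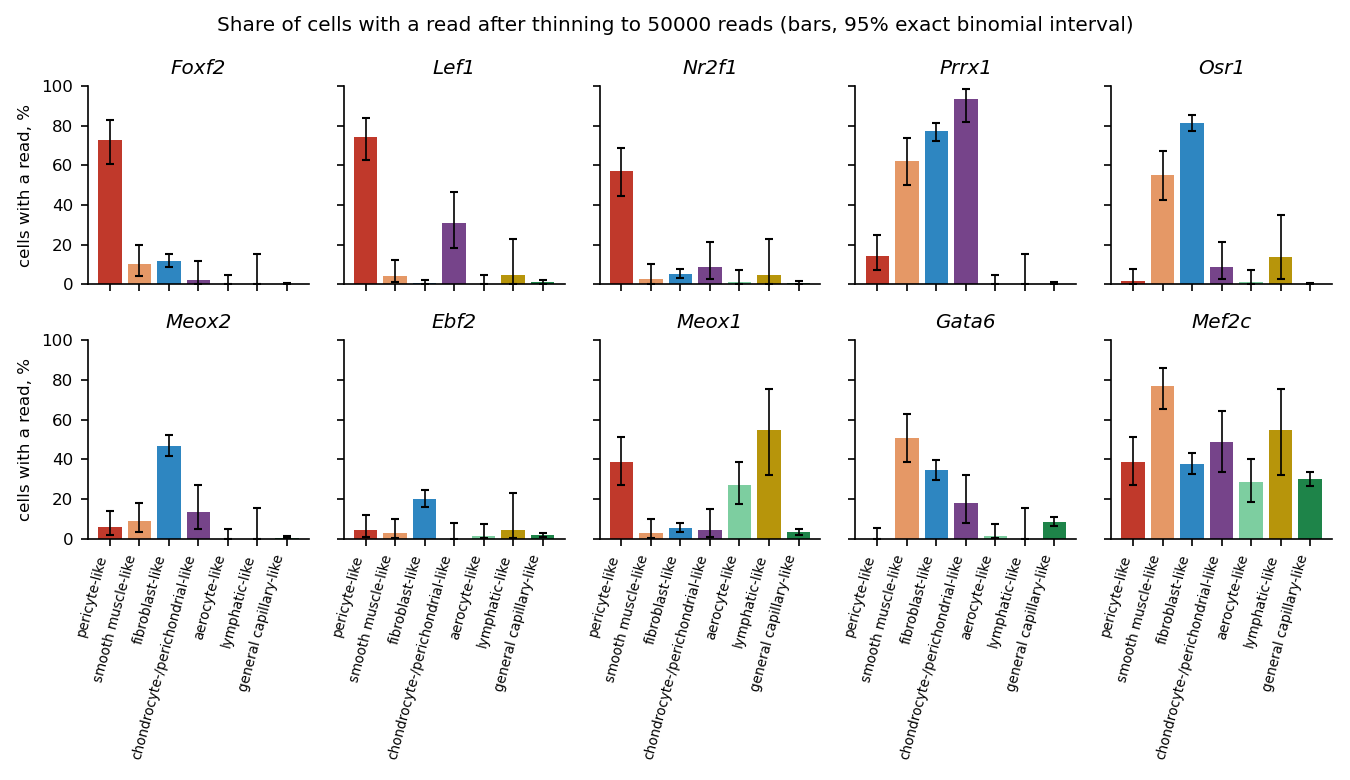
Percentage of cells of each class with a read of each gene after thinning to 50000 reads; bars are shares and lines are exact 95% binomial intervals. Foxf2, Lef1 and Nr2f1 peak in pericyte-like cells at 72.9%, 74.3% and 57.1%, Osr1 and Meox2 in fibroblast-like cells at 81.5% and 46.8%, and Gata6 and Mef2c in smooth muscle-like cells at 50.7% and 76.8%.

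Levels of different genes were compared per kilobase of merged exons. In pericyte-like cells the order was Foxf2 at 247 CPM per kilobase, Meox1 at 54.6, Nr2f1 at 31.4, Lef1 at 25.6, Meox2 at 19.0, Mef2c at 12.9 and Prrx1 at 4.90, with the other 3 genes below 1. In smooth muscle-like cells Osr1 led with 78.9 CPM per kilobase, before Gata6 with 19.0, Mef2c with 13.6 and Prrx1 with 11.5. In fibroblast-like cells Osr1 had 124 CPM per kilobase, Meox2 71.7, Prrx1 19.5 and Meox1 10.8. Nr2f1 and Lef1 in pericyte-like cells were close to each other on this scale, and so were Mef2c and Prrx1 in smooth muscle-like cells. A pericyte-like cell held reads of a median of 3 of the 10 genes, as did smooth muscle- and fibroblast-like cells, and a general capillary-like cell a median of 0.

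To compare these differences with the whole table, a size rule was applied to all 21947 genes. A gene passed with a difference of at least 4-fold, a level of 50 CPM or more on the higher side and a read in at least 25% of the thinned cells there. Comparisons share classes: the fibroblast- and general capillary-like cells serve in several, so their results are not independent. The 10 genes were chosen with earlier results known, so their counts past the rule are a description and no test of enrichment. Between pericyte- and fibroblast-like cells, 9 of the 10 genes and 5226 of the 21947 reached 50 CPM on the higher side. For pericyte- over fibroblast-like cells, 4 of the 10 genes passed as higher (Foxf2, Lef1, Nr2f1 and Meox1) and 1 as lower (Osr1), where 4.55% of all genes passed, 2.45% as higher and 2.1% as lower. The median log2 difference was -0.07 over the 10 genes, 0.78 over all genes and 0.55 over the 5226 genes with at least 50 CPM. The all-gene median takes in genes with few or no reads, where a side under 3 reads was set to 3. Scaling by TMM factors shifts every log2 difference here by -0.63 and median-ratio factors by -0.58. With either, Meox1 no longer passed and Prrx1, Meox2 and Gata6 passed as lower. These 3 also passed as lower under other alternatives: Prrx1 with the mean of per-cell CPM, the deposited normalized values, classes set by markers alone or without Mural1; Meox2 among cells with at least 150000 reads, with classes set by markers alone, without Mural1 or without Mural3; and Gata6 with a minimum of 10 CPM, with no minimum or without Mural3. The share of all passing genes that were higher was 32.1% with TMM factors in place of 53.9%. Meox1 depended on the column sets too: its log2 difference was 4.08 without Mural1, 1.62 without Mural2 and 0.51 without Mural3, against 2.33 with all, and the call ended without Mural2 or Mural3. The other 4 calls held, with Lef1 at 8.75 without Mural2 and 10.92 without Mural3, Nr2f1 at 7.01 without Mural3 and Osr1 at -9.27 without Mural1 and -8.71 without Mural2, against 9.44, 5.34 and -10.01.

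For pericyte- over smooth muscle-like cells 6 of the 10 genes passed, Foxf2, Lef1, Nr2f1 and Meox1 as higher and Osr1 and Gata6 as lower, where 4.11% of all genes passed, 1.99% as higher and 2.13% as lower. The folds of those higher were 31.7 for Foxf2, 279 for Lef1, 73.5 for Nr2f1 and 19.6 for Meox1. These 6 calls held in all 15 alternatives tried. Without Mural1 the log2 difference of Meox1 was 5.24 in place of 4.29 and that of Gata6 -8.13 in place of -8.95. For smooth muscle- over fibroblast-like cells only Meox2 passed, as lower, against 3.46% of all genes, 1.85% as higher and 1.6% as lower, and its log2 difference of -4.24 was -5.16 without Mural3. Foxf2 had 18.4 CPM in smooth muscle- and 17.1 CPM in fibroblast-like cells, a fold of 1.08 (0.960 to 1.20). Mef2c, at a fold of 3.62, passed when Mural1 was left out, when every cell had the same weight and with the deposited scores.

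**Figure D4:**
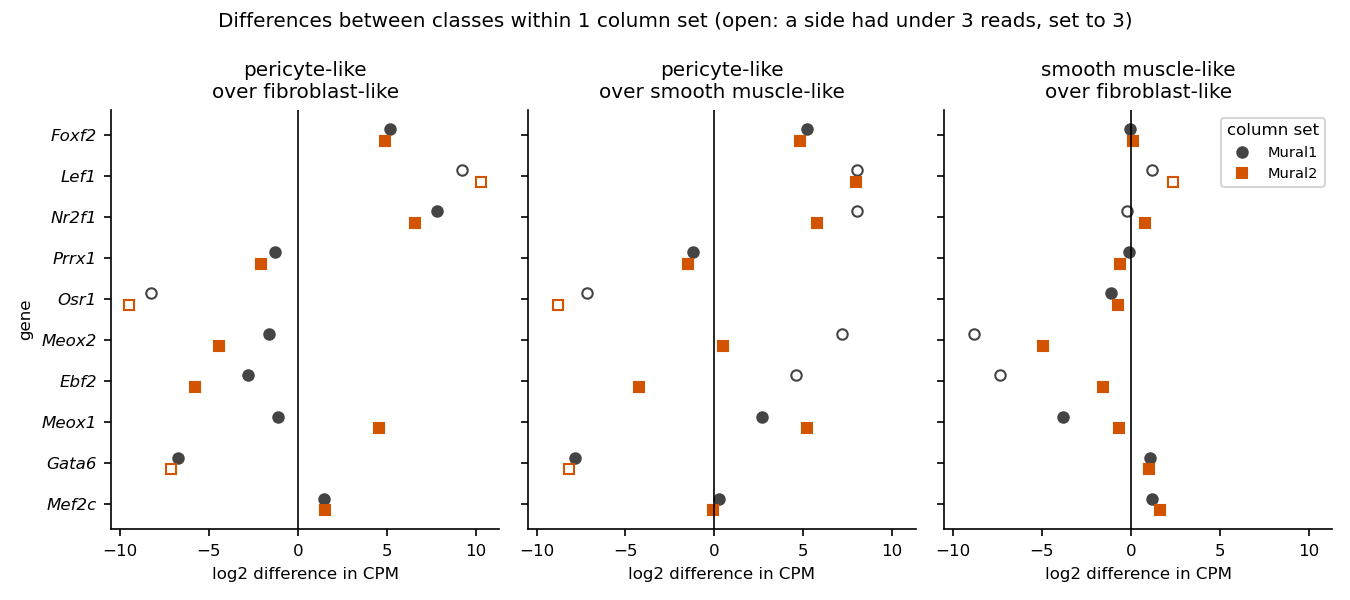
Log2 difference in CPM between 2 classes of the same column set for each gene, Mural1 (grey circles) and Mural2 (orange squares); open symbols had under 3 reads on a side, which was set to 3. Foxf2, Lef1 and Nr2f1 lie right of 0 and Osr1 and Gata6 left of 0 for pericyte-like cells in both sets, while Meox1 over fibroblast-like cells and Ebf2 over smooth muscle-like cells lie on opposite sides of 0 by set.

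Within 1 column set, the pericyte- over fibroblast-like fold of Foxf2 was 36.2 in Mural1 and 29.8 in Mural2. That of Nr2f1 was 228 in Mural1 and 95.1 in Mural2. Gata6 was higher in smooth muscle- than fibroblast-like cells by 2.08-fold in Mural1 and 2.04-fold in Mural2. Mef2c was higher in pericyte- than fibroblast-like cells by 2.76-fold in Mural1 and 2.92-fold in Mural2, both below the threshold of the rule. Prrx1 was lower in pericyte- than fibroblast-like cells in both sets, by 2.49-fold and 4.16-fold.

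Against general capillary-like cells, pericyte-like cells passed for Foxf2, Lef1, Nr2f1 and Meox1, where 4.01% of all genes passed, 2.39% as higher. The folds were 244 for Lef1, 238 for Nr2f1 and 10.0 for Meox1. Smooth muscle-like cells passed for Prrx1, Osr1 and Gata6, against 5.09% of all genes and 3.06% as higher, with folds of 519, 547 and 6.16. Fibroblast-like cells passed for Prrx1, Meox2 and Osr1, against 4.93% of all genes, 2.77% as higher and 2.16% as lower, with folds of 882, 790 and 860. General capillary-like cells held 32 reads of Prrx1, 39 of Osr1, 28 of Meox2 and 1587 of Meox1. The folds moved with the set left out, and the cause was not tested. In fibroblast-like cells the log2 difference of Meox2 was 10.56 without Mural3. That of Prrx1 was 12.64 without EC1 and 9.18 without EC2, and that of Osr1 11.89 and 9.09. In smooth muscle-like cells the values without EC1 and without EC2 were 11.88 and 8.41 for Prrx1 and 11.24 and 8.44 for Osr1. In pericyte-like cells Foxf2 was 13.98 without EC2, Nr2f1 9.23 without EC3, Lef1 7.33 without Mural2 and Meox1 3.98 without EC3 and 2.73 without Mural2. None of the 10 genes passed as lower in these 3 comparisons. Meox1 passed alone for aerocyte-like cells, with a fold of 10.8 and 1.07% of all genes passing, 0.551% as higher, and alone for lymphatic-like cells, with a fold of 31.7 and 2.98% passing, 1.57% as higher and 1.42% as lower. The aerocyte call ended without EC1 or without EC3, where the share of aerocyte-like cells with a Meox1 read was 24.1% and 22.5%.

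Over whole column sets the same genes appeared with the mix of cells each set held. Mural1 and Mural2 together passed over Cldn5-eGFP cells for Prrx1, Meox2, Foxf2 and Osr1, where 4.24% of all genes passed, 2.65% as higher and 1.59% as lower. The call for Foxf2 ended among cells with at least 150000 reads. Pericyte-like cells had the lowest median depth of all clusters, 146900 reads, so that limit leaves out many of them. What this did to the call was not tested. Lef1 did not pass, but did with the mean of per-cell CPM, the deposited normalized values, a minimum of 10 CPM or no minimum, and Gata6 did among cells with at least 150000 reads. Mural3 passed for Prrx1, Meox2 and Osr1, where 4.62% passed, 2.58% as higher. Foxf2 was at 93.4 CPM in Mural1 and Mural2 together, 21.1 CPM in Mural3 and 0.049 CPM in Cldn5-eGFP cells. Cldn5-eGFP cells held 33 reads of Prrx1, 28 of Meox2 and 8 of Foxf2. The log2 differences of these genes moved with the set left out, and the cause was not tested. For Mural1 and Mural2 they were 12.79 for Prrx1 and 11.79 for Foxf2 without EC1. Prrx1 was at 8.96 without Mural1 and 10.65 without Mural2. Meox2 was at 10.02 without EC2 and 8.81 without EC3, and Foxf2 at 10.29 without EC3. For Mural3 the log2 differences were 12.94 for Prrx1 without EC1 and 10.15 and 8.94 for Meox2 without EC2 and without EC3. In Cldn5-eGFP cells Meox1 was at 42.5 CPM and Mef2c at 144 CPM, and the other 8 genes lay at or below the 16.1 CPM of Gata6. In such sums fewer cells of a class and less RNA per cell cannot be told apart. In fibroblast-like cells of Mural1 and Mural2 over Mural3, with a threshold of 2-fold, Meox2 alone passed, where 1.08% of all genes passed, 0.533% as higher and 0.547% as lower. That call ended without Mural2 and with classes set by markers alone. Without Mural2 Meox1 passed instead, with a log2 difference of 4.25, and it also passed with no minimum.

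The fibroblast-like class held 3 clusters that differed in these genes. Cluster 2 (273 cells; leading genes Apod, C3 and Scara5) had Ebf2 at 65.4 CPM in 22.0% of cells. Cluster 10 (39 cells; Cilp, Adamtsl2 and Fbln2) had Ebf2 at 47.3 CPM in 25.6% of cells, while cluster 8 (51 cells; Hhip, Adh7 and Cyp2e1) had 0.952 CPM in 3.92% of cells (0.479 to 13.5). Foxf2 ran the other way, with 66.6 CPM and 29.4% of cells (17.5 to 43.8) in cluster 8, against 8.83 CPM and 8.06% (5.12 to 11.9) in cluster 2. Gata6 was highest in cluster 10, at 87.3 CPM in 64.1% of cells, with 40.9 CPM in cluster 2 and 19.7 CPM in cluster 8. Prrx1 was at 109 CPM in cluster 8, 194 CPM in cluster 10 and 239 CPM in cluster 2. Of cluster 8, 48 cells came from Mural3, and within Mural3 the 48 cluster 8 cells had Foxf2 at 61.6 CPM and Ebf2 at 1.03 CPM, against 7.92 and 61.3 CPM in its 230 cluster 2 cells. Prrx1 there was at 113 CPM in cluster 8 and 251 CPM in cluster 2, so the clusters differed in these genes inside 1 column set as well.

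**Figure D5:**
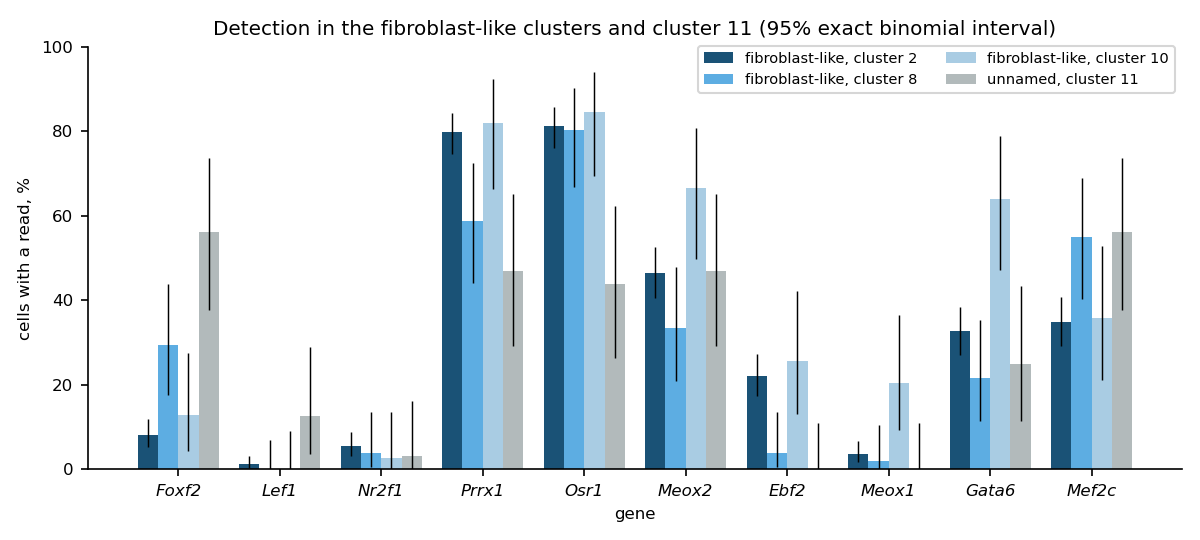
Percentage of cells with a read of each gene after thinning to 50000 reads in the 3 fibroblast-like clusters and in unnamed cluster 11, with exact 95% binomial intervals. Foxf2 is found in 29.4% of cluster 8 and 56.2% of cluster 11 but 8.06% of cluster 2, and Ebf2 in 22.0% of cluster 2 but 3.92% of cluster 8.

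Paralogues of the 10 genes, which bind similar DNA, were followed from a list of 20. For pericyte- over fibroblast-like cells, 2 passed as higher and none as lower, beside 2.45% and 2.1% of all genes. The median log2 difference was -0.02 over the list, 0.78 over all genes and 0.55 over genes with at least 50 CPM. Those that passed were Tcf7, another WNT effector, at 89.8 and 3.22 CPM (27.9-fold), and Foxf1, the closest forkhead relative of Foxf2, at 304 and 46.4 CPM (6.54-fold). Nr2f2, the paralogue of Nr2f1, stood at 550 CPM in pericyte-like cells and had a read in all of them, but was also at 179 CPM in smooth muscle- and 185 CPM in fibroblast-like cells, and did not pass. Ebf1 stood at 253, 121 and 72.9 CPM in pericyte-, smooth muscle- and fibroblast-like cells. Foxf1 differed from Foxf2 in endothelium, where general capillary-like cells had 558 CPM of Foxf1. Gata2, another GATA factor, was at 4.38 CPM in fibroblast-like and 431 CPM in general capillary-like cells, 98.4-fold lower in the fibroblast-like ones.

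Of 60 other mesenchymal transcription factors, 8 passed as higher and 7 as lower in pericyte- over fibroblast-like cells, beside 2.45% and 2.1% of all genes. Their median log2 difference was -0.11, beside 0.78 over all genes and 0.55 over genes with at least 50 CPM. Tbx2, a T-box repressor, was at 1413 CPM in pericyte- and 49.6 CPM in fibroblast-like cells. Nfib, a nuclear factor I protein, was at 20.1 CPM in pericyte- and 495 CPM in fibroblast-like cells, and Creb3l1 at 8.79 and 146 CPM. For smooth muscle- over fibroblast-like cells 4 passed as higher and 7 as lower, beside 1.85% and 1.6% of all genes. The median there was -0.31 over the list, 0.42 over all genes and 0.30 over genes with at least 50 CPM. Myocd, the coactivator of smooth muscle contractile genes, was at 119 CPM in smooth muscle- and 0.922 CPM in fibroblast-like cells, and Hey2, a Notch target, at 83.7 and 4.05 CPM. Twist2 and Hic1 were lower, at 1.67 and 3.74 CPM in smooth muscle- against 52.5 and 68.0 CPM in fibroblast-like cells.

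The WNT list around Lef1 held 32 genes. For pericyte- over fibroblast-like cells 2 passed as higher, Axin2, a feedback target of beta-catenin, at 50.3 and 6.00 CPM, and the corepressor Tle4 at 65.3 and 10.8 CPM. Alternatives were followed for the 10 genes only. With TMM factors, which shift log2 differences here by -0.63, Axin2 would fall under 50 CPM and Tle4 under 4-fold. Median-ratio factors would also take Axin2 under 50 CPM. The receptor gene Fzd2 passed as lower, at 8.88 and 65.0 CPM. Of all genes, 2.45% passed as higher and 2.1% as lower in that comparison. The median log2 difference of the list was 0.56, beside 0.78 over all genes and 0.55 over genes with at least 50 CPM. Over smooth muscle-like cells 3 passed as higher and 1 as lower, beside 1.99% and 2.13% of all genes, the secreted protein gene Dkk3 at 710 and 149 CPM among the first and the R-spondin receptor gene Lgr6, at 15.0 and 273 CPM, being the last. Dkk3 would be under 4-fold with TMM factors, which shift log2 differences there by -0.28. Over general capillary-like cells the paralogue list had 3 higher and 1 lower in pericyte-like, 3 and 2 in smooth muscle-like and 2 and 2 in fibroblast-like cells; the other transcription factors had 12 and 4, 8 and 3, and 10 and 3, and the WNT list 5 and 1, 5 and 0, and 3 and 2. Of all genes, 2.39% passed as higher and 1.62% as lower in pericyte-like, 3.06% and 2.04% in smooth muscle-like and 2.77% and 2.16% in fibroblast-like cells. The all-gene median log2 differences were 0.14, -0.16 and -0.54, beside 0.93, 0.97 and 0.96 for the paralogues, 1.48, 1.59 and 2.33 for the other transcription factors and 0.53, -0.01 and 0.03 for the WNT list. Over genes with at least 50 CPM the medians were 0.05, -0.16 and -0.48. Of 16 cofactors of MEF2 and GATA factors, none passed for pericyte- or smooth muscle- over fibroblast-like cells, beside 4.55% and 3.46% of all genes. For pericyte- over smooth muscle-like cells, 1.99% of all genes passed as higher. Ep300, a histone acetyltransferase gene, did so among these cofactors, at 99.6 and 24.7 CPM. Its fold lay just above 4 and would fall under it with TMM factors. Among them Hdac7, a class II histone deacetylase that binds MEF2, was at 118 CPM in pericyte-, 31.5 CPM in smooth muscle-, 67.6 CPM in fibroblast- and 443 CPM in general capillary-like cells.

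For each gene the 3 genes most like it were found by Pearson's r of log2(CPM + 1) over the 14 classes within column sets. These points share libraries and cells of 1 sample each, so r is a description. For Foxf2 they were Arhgap42 (r = 0.98), Art3 (0.95) and Ndufa4l2 (0.95), the last one of the pericyte markers. For Nr2f1 they were Agtr1a, the angiotensin receptor gene (0.96), Cybrd1 (0.95) and Cdk18 (0.95), and for Lef1 Ucn2 (0.98), Chst5 (0.97) and Spp1 (0.95). For Prrx1 they were Islr, Trabd2b and Col6a2 (0.98 to 0.99), for Meox2 Cygb, Fbln1 and Adcy7 (0.95 to 0.97) and for Osr1 Mmp23, Podn and Gstt1 (0.94 to 0.95). For Gata6 they were Prss23, Abtb2 and Cdr2 (0.94 to 0.98), and for Ebf2 Dpep1, C2 and Pi16 (0.93 to 0.96). Meox1 had no gene above 0.81 (Manf, Plxdc1 and Begain), and Mef2c had Nf2, Bptf and Akap11 (0.90 to 0.92). Among the 10 genes, r was 0.93 between Nr2f1 and Lef1, 0.84 between Foxf2 and Nr2f1 and -0.04 between Meox1 and Meox2.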

How the data were processed

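Raw read counts of each gene in each cell were deposited, and so were scores. The submitters' processing notes name STAR 2.4.2a and the mm10 build; counter, annotation and cell filter are not given in the sources used here. Each deposited score equals a gene's reads times 500000 over the cell's total, rounded, to within 0.5. Counts were used throughout and scores in 1 alternative. The eGFP row was left out (0.168% of reads).

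The 10 genes and the lists were chosen with earlier results of these data known. Cells were clustered with scanpy 1.11.5 (2000 variable genes, 30 principal components, 15 neighbours, Leiden resolution 1) and named from 128 measured markers. A cluster was called mixed from 50% epithelial or leukocyte markers. The chondrocyte- or perichondrial-, lymphatic- and aerocyte-like classes needed 50% of their own markers and the other classes 40%. A cluster stayed unnamed if its 10 leading genes held more markers of another type than of its own. Cluster 11 stayed unnamed by that rule, with 75.3% for the fibroblast markers. These limits were chosen with the files in view. Doublets were not called by a tool; 103 cells that had reads of several endothelial and several mesenchymal markers were counted as doublet-like, and kept. No 2 cells had identical counts.

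Intervals are Poisson for reads, Clopper-Pearson for shares and conditional for folds. A side under 3 reads was set to 3 for the rule. Named were the 10 genes, up to 4 genes of each other list per comparison (first those past the rule, ranked by fold, and then the highest levels; not all are printed) and the 3 most alike to each gene among those with at least 50 CPM. Scaling factors came from edgeR 4.0.16. The size rule was tested on simulated data. Promoters are RefSeq's for GRCm38.p6 and coordinates, counted from 1, are GENCODE's for GRCm38.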

Additional observations from a re-analysis of the deposited data

Results flagged for a closer look

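For Meox1 and Ebf2 a difference between classes took opposite signs in Mural1 and Mural2, with counting intervals that lay on opposite sides of a fold of 1. The log2 difference of Meox1 in pericyte- over fibroblast-like cells was -1.13 in Mural1 and 4.57 in Mural2. In fibroblast-like cells Meox1 stood at 175 CPM in Mural1 and 6.34 CPM in Mural2. Of these cells, 21 of 36 in Mural1 lay in cluster 10, which had the most Meox1 of the 3 clusters, and 30 of 38 in Mural2 lay in cluster 2. Within cluster 2 Meox1 was at 272 CPM in the 13 Mural1 cells and 8.37 CPM in the 30 Mural2 cells. The log2 difference of Ebf2 in pericyte- over smooth muscle-like cells was 4.59 in Mural1 and -4.23 in Mural2. Ebf2 had 69 and 0 reads in Mural1, the second set to 3, and 4 and 152 reads in Mural2. One cell held 85.5% of the 69 reads and 1 cell held 77.0% of the 152 reads. With 1 sample per set, neither difference between sets was tested.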

How the results depend on the processing

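No paired analysis was possible because the results come from no test and the column sets carry no replicate numbers; differences between classes within Mural1 and within Mural2 are given as values. Across all alternatives no gene past the rule changed direction. With no minimum level or share, the number of the 10 genes past the rule was 7 for Mural1 and Mural2 and 8 for Mural3 over Cldn5-eGFP cells, 7, 6 and 6 for pericyte-, smooth muscle- and fibroblast-like, 5 for aerocyte- and 6 for lymphatic-like over general capillary-like cells, 2 for smooth muscle- over fibroblast-like cells and 4 for fibroblast-like cells of Mural1 and Mural2 over Mural3. Of all 21947 genes, 5628 passed for Mural1 and Mural2 and 6407 for Mural3. Pericyte-, smooth muscle- and fibroblast-like cells had 7504, 7607 and 7326, and aerocyte- and lymphatic-like cells 8074 and 8773. Smooth muscle- over fibroblast-like cells had 6805, and fibroblast-like cells of Mural1 and Mural2 over Mural3 had 9298. With so many genes passing, these counts are no result about the 10 genes. With the mean of per-cell CPM or the deposited normalized values, smooth muscle- over fibroblast-like cells had 2. With classes set by markers alone, fibroblast-like cells of Mural1 and Mural2 over Mural3 had 0. Leaving out 1 column set at a time gave 0 to 1 for aerocyte- over general capillary-like cells, 1 to 2 for smooth muscle- over fibroblast-like cells and 4 to 7 for pericyte- over fibroblast-like cells. Shares of all genes passing with per-cell means, deposited values, classes set by markers or a set left out are not printed here. The counts in those settings therefore do not tell a change of the 10 genes from a change over the whole table. Foxf2 no longer passed for Mural1 and Mural2 over Cldn5-eGFP cells among cells with at least 150000 reads. The share of all passing genes that were higher was 68.7% with TMM factors and 56.1% without for fibroblast- over general capillary-like cells, 43.5% and 53.6% for smooth muscle- over fibroblast-like cells, and, with median-ratio factors, 66.6% and 55.8% for Mural3 over Cldn5-eGFP cells and 63.0% and 51.7% for aerocyte- over general capillary-like cells. With no minimum, 5628 to 9298 of all genes passed in place of 234 to 1118. Among the 6 genes past the rule for lymphatic-like cells with no minimum was Foxf2. It had 0 reads in lymphatic-like and 2 in general capillary-like cells, so both sides were set to the same floor. Its log2 difference of 4.48 therefore reflects only the total reads of the classes and is no result about Foxf2. Beyond this call, the cause of these changes was not tested. With cluster 11 in the fibroblast-like class or without the mixed cluster, both chosen after seeing the data, none of the calls on the 10 genes changed. Depth limits genes read in few cells: 1 cell held 80.8% and 76.5% of the Ebf2 reads in pericyte- and smooth muscle-like cells, and 41.6% and 47.7% of the Prrx1 and Meox2 reads in pericyte-like cells.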

Other observations

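Cluster 11, 32 cells whose leading genes were Hhip, Cyp2e1 and Cilp and of which 22 came from Mural3, held Foxf2 at 107 CPM in 56.2% of cells (37.7 to 73.6), together with Meox2 at 195 CPM in 46.9% and Lef1 at 18.8 CPM in 12.5%. Its Mef2c level was 133 CPM. Ebf2 stood at 0.456 CPM, as 5 reads. The 10 fibroblast markers summed to 37630 CPM and the 11 pericyte markers to 262 CPM in these cells.

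In the 169 cells of the mixed cluster, Prrx1 stood at 86.8 CPM, Osr1 at 113 CPM and Gata6 at 43.5 CPM in 49.1% of cells. In its 88 cells from Mural2, Nr2f1 and Lef1 had a read in 21.6% and 20.5% of cells, and in its 61 cells from Mural3 in 4.92% and 1.64%. Of the 169 cells, 76 were doublet-like.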
